A study of Drosophila melanogaster with 35 samples.

Results

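The genes described here encode the proteins of the mitochondrial ribosome of Drosophila melanogaster. They were taken as every row of the array that names 1 gene whose symbol begins with mRpL or mRpS followed by a digit. Where a gene had several rows, their mean was used. This gave 54 genes from 60 rows, out of 7258 genes with a symbol and 9006 rows. Of the 54 genes, 37 belong by their symbol to the large subunit (mRpL) and 17 to the small subunit (mRpS). Release 6 of the fly annotation lists 73 symbols of this form. The other 19 are not among the 54 genes, and 3 rows that name mRpL13, mRpL30 or mRpL53 together with another gene were left out. The small subunit genes tko and bonsai, which carry other symbols, were not counted as members.

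The mitochondrial ribosome translates the few messages of mitochondrial DNA, nearly all of which encode subunits of the respiratory chain and the ATP synthase. Its proteins are all encoded in the nucleus, made in the cytosol and imported. Proteins numbered up to 36 in the large subunit and up to 21 in the small subunit follow the bacterial numbering and have bacterial relatives, and the higher numbers are mostly proteins that mitochondria added. Lamin (Lam) lines the inner face of the nuclear envelope. Genes in contact with the lamina are as a rule weakly transcribed, whereas ribosomal protein genes of either compartment are mostly housekeeping genes.

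All arrays were made with Kc167 cells, an embryonic cell line of the fly, so every value comes from 1 line. In DamID a protein fused to the bacterial adenine methyltransferase Dam leaves methyl marks on DNA near the protein, and the methylated DNA is hybridised against that of cells expressing Dam alone. Both fusions and Dam alone were expressed from the pNDamMyc plasmid after transfection, so the marked Lam was an added copy in cells that keep their own. In untreated cells, 4 arrays set Dam-Lam against Dam and another 4 set Dam-Lam delta CaaX against Dam. The delta CaaX protein lacks the last 4 amino acids of Lam, the signal that targets it to the nuclear membrane. Trichostatin A (TSA), which blocks histone deacetylases, was given at 100 nM for 24 h. The TSA experiment had 2 arrays each for Dam, Dam-Lam and Dam-Lam delta CaaX with over without TSA, and 2 arrays each for Dam-Lam over Dam and Dam-Lam delta CaaX over Dam, both with TSA. Transcripts of cells grown with over without ecdysone, the fly's moulting hormone, had 5 arrays, and the labels of these arrays give no dose or time. Transcript level in untreated cells was read from 2 arrays of mRNA over genomic DNA. A further 10 DamID arrays compared cells with and without 1 µM ecdysone for 24 h.

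Values are log2 ratios with the median of each array set to 0, and channel 1 of the labels over channel 2 was assumed for every array. No intensities were used. The number of arrays and the spread between them limit the precision. Nothing in the labels says that arrays of a group come from separate cultures, and the TSA arrays, which are not called replicates there, may be the same DNA hybridised with the dyes exchanged. The p-values then measure only the spread between hybridisations. Between 7542 and 8485 rows per array held a value. Hml, a hemocyte gene, ranked at the 98.3 percentile of all units on the mRNA arrays, while vas (germline), Yp1 and Fbp1 (fat body) ranked at 4.55, 10.5 and 0.694. Of 6 other hemocyte genes measured, NimC1 ranked at 3.84 and srp, Pxn, Col4a1, vkg and crq between 47.0 and 67.2. The neuronal gene nSyb ranked at 19.0 and the muscle gene Mlc2 at 32.0. A unit is a gene, or a row without a single gene name. Members were tested with limma across all units of a comparison, and a member was called higher or lower at a Benjamini-Hochberg adjusted p under 0.05. Members with values on fewer than 75% of the arrays in a comparison were not tested. Full-length Lam was tested at 52 members (not at mRpL4 and mRpL44) and Lam delta CaaX at 47 (not at mRpL2, mRpL11, mRpL32, mRpL35, mRpL41, mRpL43 and mRpS2). TSA and ecdysone were tested at 36, without these last 7 and without mRpL9, mRpL23, mRpL30, mRpL40, mRpL42, mRpL48, mRpL55, mRpS5, mRpS11, mRpS26 and mRpS28.

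In untreated cells the mRNA of most mitochondrial ribosomal protein genes was above the middle of the array. Of 52 members with a value, 50 lay above the array median and 32 lay more than 2-fold above it, against 27.8% of all units. The median member stood at 1.18 on the log2 scale over genomic DNA, with 1.06 on array 3458 and 1.25 on array 3459. Large subunit genes had a median of 1.25 (35 genes) and small subunit genes 1.15 (17 genes). As deposited, without centring, the median of all members was 0.97. These are 2 arrays, and no test was made.

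The highest ratio was that of mRpL37, a large subunit protein without a bacterial relative, with 2.48 on array 3458 and 2.74 on array 3459. mRpS7, a protein of the head of the small subunit, had 2.21 and 2.54. mRpL33, a short protein whose bacterial relative can bind zinc, had 2.02 and 2.42. mRpL12, which forms the stalk that recruits translation factors, had 1.91 and 2.38, and mRpL30 had 1.89 and 2.25. These 5 genes were picked by the mean of both arrays, so a high value on each is no separate check of their place. On array 3458 mRpS28 lay above mRpL12 and mRpL30.

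The lowest value was that of mRpL20, whose bacterial relative is needed early in assembly of the large subunit. It gave -1.10 on array 3458 and -0.89 on array 3459, below the array median on both. mRpS18B gave -0.49 and -0.66. mRpL40 (-0.24 and 0.30), mRpL48 (-0.02 and 0.21) and mRpS34 (0.43 and -0.10) lay near the median with opposite signs on the pair of arrays. The arrays differed most at mRpS28, where array 3459 minus array 3458 was -1.04.

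Members with bacterial numbers had a median of 1.28 (30 genes), and members with mitochondrial numbers a median of 0.84 (22 genes). The median of 53 genes of oxidative phosphorylation was 2.73, with 7 of them below 0, and that of 30 cytosolic ribosomal protein genes was 5.92, with 3 below 0. Both medians were above that of the members, while the ranges overlapped. These lists were drawn by symbol and include paralogues, and their lowest genes were ND-51L2 and RpL10Aa. Genes of mitochondrial translation other than ribosomal proteins, mainly aminoacyl-tRNA synthetases and elongation factors, had a median of 0.08 (14 genes). Of the ribosomal proteins under other symbols, bonsai stood at 1.14 and tko at 0.58. The values are ratios to genomic DNA on cDNA spots, so levels of different genes are not given per length.

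**Figure D1:**
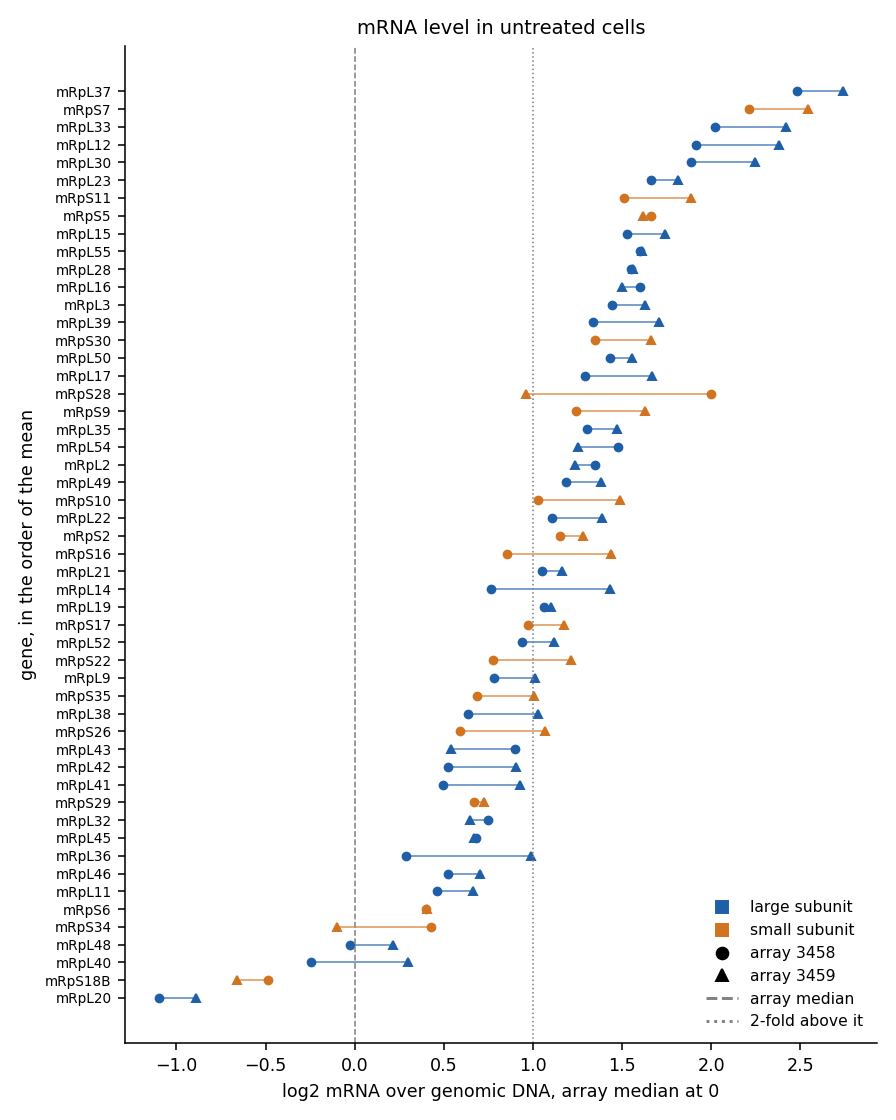
mRNA over genomic DNA of 52 genes (log2, array median at 0), with 1 symbol per array and a line joining both arrays of a gene. Most genes lie to the right of the array median, mRpL37 at the top with a mean of 2.61 and mRpL20 at the bottom with a mean of -0.99.

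With full-length Lam, the members were shifted below the array median. The median over 52 tested members was -0.37, against -0.02 over all 8062 units, and it was -0.31, -0.40, -0.57 and -0.33 on arrays 2907, 2921, 2945 and 2955. On these arrays 39 of 52, 47 of 52, 41 of 50 and 43 of 52 members lay below 0. Limma called 16 members lower, where 14.9% of all units were lower, and 1 member higher, where 20.3% were higher. Large subunit genes had 12 lower and 1 higher of 35, with a median of -0.39. Small subunit genes had 4 lower and 0 higher of 17, with a median of -0.36, and 8 of the 17 had an unadjusted p under 0.05. So had 3911 of all 8062 units. Of 50 members with a value on each array, 27 were below 0 on every array, where 28.1% of all units were. mRpL32 was above 0 on every array, where 29.3% of all units were.

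The lowest Lam ratio was that of mRpL36, a very short zinc-binding protein in bacteria. Its values were -0.35, -1.76, -0.66 and -1.05 on arrays 2907, 2921, 2945 and 2955. All 4 were below 0, with array 2921 far the lowest, and the mean was -0.96 ± 0.24 (SE, n = 4, adjusted p = 0.0239). mRpL30 gave -0.50, -0.65, -1.55 and -0.23 (mean -0.73 ± 0.22, adjusted p = 0.0436). mRpL23, which in bacteria lies at the mouth of the exit tunnel, gave -0.38, -0.36, -1.64 and -0.45 (mean -0.71 ± 0.21, adjusted p = 0.0401). In both genes array 2945 was much lower than the rest. The spread of all units was also widest on that array, with an SD of 0.885 against 0.591 to 0.638 on the other 3.

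mRpL22, whose bacterial relative lines the exit tunnel, was more even, with -0.58, -0.57, -0.86 and -0.80 (mean -0.70 ± 0.13, adjusted p = 0.0101). mRpL15, a late-joining protein in bacterial assembly, had a mean of -0.70 ± 0.15 (adjusted p = 0.0148). mRpL2, which sits by the peptidyl transferase centre in bacteria, had a mean of -0.60 ± 0.18 over the 3 arrays that measured it (adjusted p = 0.0454). The lowest small subunit gene was mRpS6, a platform protein in bacteria, at -0.60 ± 0.14 (adjusted p = 0.0217). The other called members were mRpL14, mRpL38, mRpS9, mRpL28, mRpS35, mRpL55, mRpS5, mRpL43 and mRpL20, between -0.60 and -0.49.

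The member called higher was mRpL32, whose yeast and mammalian relatives are cut by a mitochondrial protease before they join the ribosome. Its values were 0.54, 0.46, 0.23 and 0.84, with a mean of 0.52 ± 0.16 (SE, n = 4, adjusted p = 0.0425). All 4 arrays were above 0. mRpL37 gave -1.77, -0.91, -1.65 and 0.80 and was not called (mean -0.88 ± 0.38, adjusted p = 0.108). Array 2955 stood on the other side of 0 from the rest for this gene. Without it the mean of the fit, which gives both dye orientations equal weight, was -1.49. mRpL37 was then called lower, where 54.1% of all units were called. mRpS16, whose bacterial relative is needed in assembly of the small subunit, gave -0.16, -1.19, 0.49 and -0.27 and was not called either (mean -0.29 ± 0.22, adjusted p = 0.326). Without array 2945 it was called lower (-0.48), where 47.9% of all units were called.

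The number of calls rested on which arrays were in the fit. It was 1 without array 2907, 0 without array 2921 (6 members then had an unadjusted p under 0.05), 24 without array 2945 and 32 without array 2955, as 3.17%, 0.141%, 47.9% and 54.1% of all units were called. None of the 17 calls held in all 4 of these fits, while all 17 members kept their direction and the median of all members stayed between -0.43 and -0.35.

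The CaaX signal carries the lipid anchor of Lam, and the delta CaaX protein was compared with Dam in the same way. For this protein the median of 47 tested members was -0.04, close to that of all units (0.00). Limma called 9 members lower, where 16.4% of all units were lower, and 2 higher, where 16.1% were higher. All 9 lower members were of the large subunit (9 of 31), and none of the 16 small subunit genes was lower. The small subunit had 1 higher, mRpS11, and 3 with an unadjusted p under 0.05, as had 3642 of all 8056 units. The median of large subunit genes was -0.04 and that of small subunit genes -0.03.

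mRpL37 had the lowest ratio of any member with this protein. Its values on arrays 2962, 2966, 2967 and 2968 were -2.86, -2.04, -2.46 and -2.62. All 4 lay below every other member on their array, and the mean was -2.49 ± 0.15 (SE, n = 4, adjusted p = 2.85e-05). mRpL14, which in bacteria forms bridges to the small subunit, gave -1.25, -1.08, -0.56 and -1.18 (mean -1.02 ± 0.14, adjusted p = 0.00231). mRpL22 gave -1.08, -0.89, -0.75 and -1.03 (mean -0.94 ± 0.12, adjusted p = 0.00211). The array 2967 value was the least negative of the 4 for both mRpL14 and mRpL22.

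The other lower members were mRpL49 (-0.74 ± 0.12), mRpL12 (-0.74 ± 0.14), mRpL23 (-0.65 ± 0.15), mRpL9 (-0.63 ± 0.15), mRpL30 (-0.60 ± 0.12) and mRpL46 (-0.49 ± 0.16). Higher members were mRpL33, with 0.71, 1.05, 0.62 and 0.68 (mean 0.77 ± 0.12, adjusted p = 0.00355), and mRpS11, with 0.43, 0.43, 0.35 and 0.31 (mean 0.38 ± 0.12, adjusted p = 0.0362). The relative of mRpS11 in bacteria lies on the platform where the message leaves. All values of both genes were above 0. mRpS16 gave 0.48, 0.24, 0.30 and 0.35, all above 0, and just missed the threshold (mean 0.34 ± 0.12, adjusted p = 0.0568). Leaving out 1 array at a time gave 6 to 22 calls, the lowest without array 2968, where 12.8% of all units were called, and the highest without array 2966, where 41.9% were. The calls of mRpL14, mRpL22, mRpL33, mRpL37 and mRpL49 held each time.

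**Figure D2:**
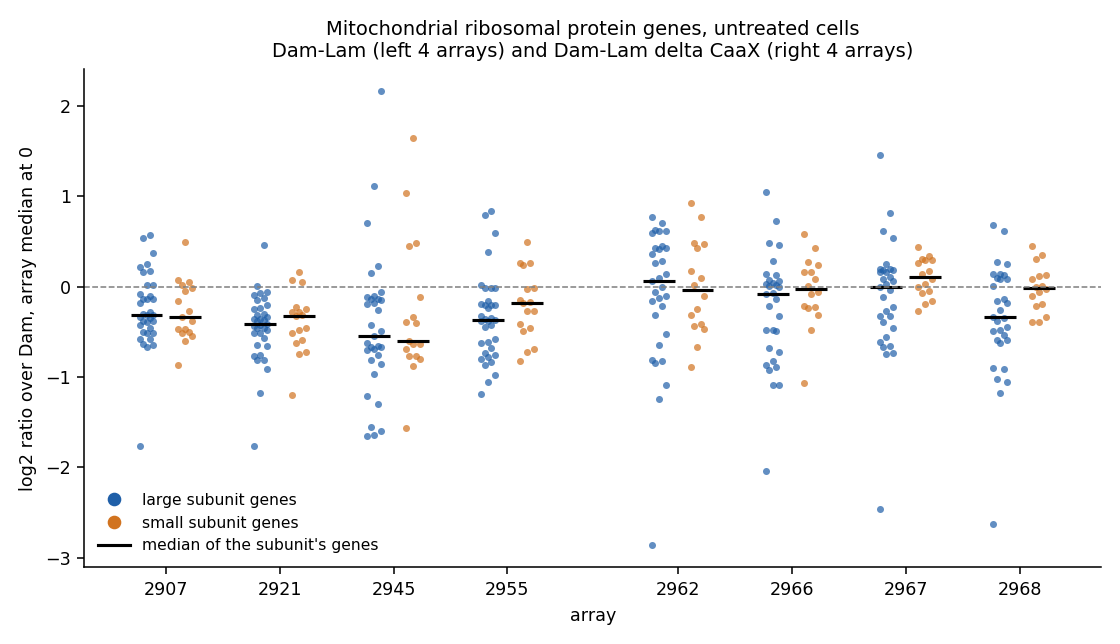
log2 ratio over Dam of each gene on each of the 8 arrays of untreated cells, in columns for large and small subunit genes, with a bar at the median of each column. The Lam columns have medians below 0 on all 4 arrays, the Lam delta CaaX medians lie between -0.33 and 0.11, and the lowest point of each Lam delta CaaX array is mRpL37.

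Full-length Lam and Lam delta CaaX were compared over the 8 arrays together, since both were measured against Dam and never on 1 array. Whether the Dam DNA of both sets was the same is not given in the labels. The median difference of 45 members (Lam minus Lam delta CaaX) was -0.19, against -0.06 for all units. Limma called 8 members lower with full-length Lam, where 14.1% of all units were lower, and 2 higher, where 21.1% were higher. The large subunit had 5 lower and 2 higher of 29, and the small subunit 3 lower and 0 higher of 16, with 6 at an unadjusted p under 0.05. Of all 7711 units, 3586 had an unadjusted p under 0.05.

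mRpL15 differed most on the lower side. Its 4 Lam values were -0.51, -0.42, -0.69 and -1.19, and its 4 Lam delta CaaX values 0.43, 0.08, 0.54 and 0.13. These groups of arrays did not overlap, and the difference was -0.996 ± 0.212 (SE, adjusted p = 0.0052). mRpL20 had -0.51, -0.23, -0.81 and -0.38 with Lam and 0.37, 0.73, 0.17 and 0.09 with Lam delta CaaX. The groups did not overlap here either, with a difference of -0.82 ± 0.19 (adjusted p = 0.00727). mRpL3, a protein near the peptidyl transferase centre in bacteria, had -0.18, -0.77, -0.42 and -0.20 with Lam, and 0.62, -0.48, 0.82 and 0.61 with Lam delta CaaX. Its groups overlapped through array 2966 (difference -0.78 ± 0.26, adjusted p = 0.0383).

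mRpS26 (-0.75 ± 0.23), mRpL55 (-0.63 ± 0.18), mRpL38 (-0.63 ± 0.21) and mRpS35 (-0.55 ± 0.17) were also called lower with full-length Lam. mRpS11 was called too (-0.74 ± 0.18), but this gene has 2 rows, and the one measured on the Lam arrays is not the one measured on the Lam delta CaaX arrays. mRpL38 has 2 rows whose mean Lam ratios were -0.89 and -0.30, the widest gap between rows of a member. Tested singly, the less negative row gave a difference of -0.07 (adjusted p = 0.805).

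On the higher side stood mRpL37 and mRpL12. For mRpL37 the Lam delta CaaX values lay below all Lam values, and the difference was 1.61 ± 0.47 (adjusted p = 0.0213). For mRpL12 the Lam values were -0.14, -0.38, -0.25 and -0.01 and the Lam delta CaaX values -0.81, -0.92, -0.32 and -0.90. The groups overlapped through array 2967, and the difference was 0.54 ± 0.19 (adjusted p = 0.0461). Leaving out 1 array gave 3 to 14 calls (3 without array 2921, 4 without array 2967, 5 without array 2968 and 6 without array 2962). In the fits without these arrays, 25.0%, 26.3%, 25.8% and 29.7% of all units were called. The calls of mRpL15, mRpL20 and mRpS11 held each time, though that of mRpS11 compares different rows.

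**Figure D3:**
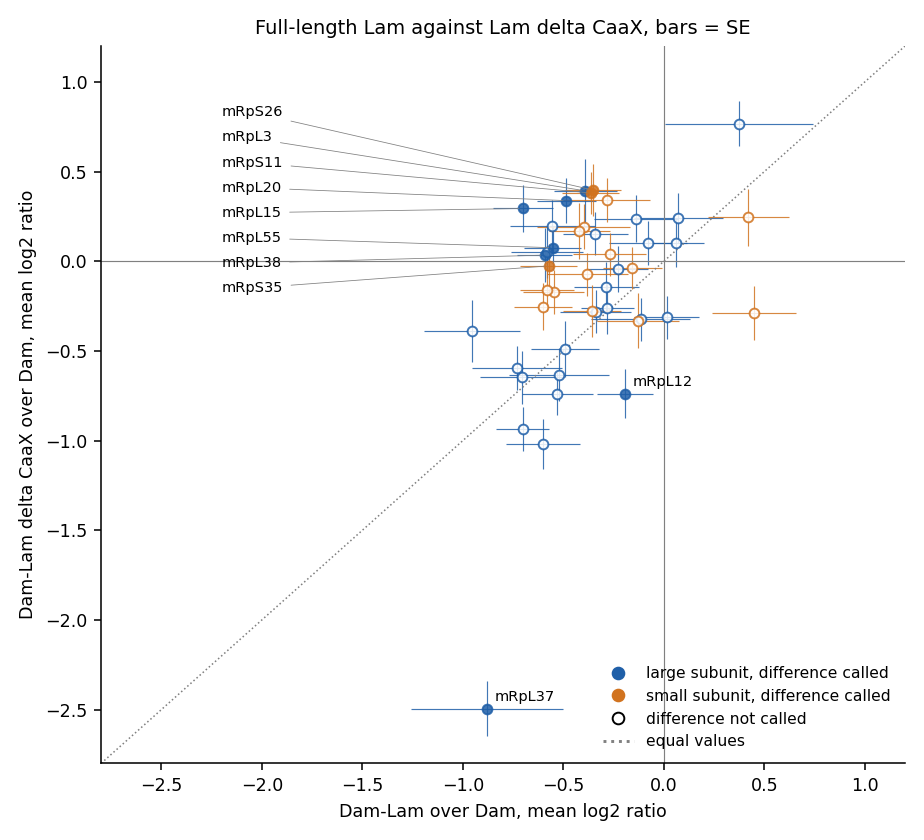
Mean log2 ratio over Dam of full-length Lam (x axis) and of Lam delta CaaX (y axis) for 45 genes in untreated cells, with SE bars, where filled points mark a called difference. mRpL37 lies alone at -0.88 and -2.49, and apart from it and mRpL12 the called points are below 0 with Lam and between -0.03 and 0.40 with Lam delta CaaX.

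With TSA, members were called in both directions, and calls were also common among all units. With Dam alone, limma called 7 higher, where 15.6% of all units were higher, and 7 lower, where 16.0% were lower, with a median of 0.03. With Dam-Lam, 18 were higher, where 31.9% of all units were higher, and 3 lower, where 33.6% were lower, with a median of 0.28 against 0.01 for all units. In either direction, 65.5% of all units were called for Dam-Lam and 56.9% for Dam-Lam delta CaaX. With Dam-Lam delta CaaX, 11 were higher, where 27.8% of all units were higher, and 11 lower, where 29.2% were lower, with a median of 0.11. For Dam-Lam the large subunit had 12 higher and 3 lower of 24 and the small subunit 6 higher and 0 lower of 12. For Dam-Lam delta CaaX these were 6 higher and 9 lower of 24, and 5 higher and 2 lower of 12. For Dam alone, all 7 lower members were of the large subunit, and the small subunit had 2 higher and 0 lower of 12. Small subunit genes with an unadjusted p under 0.05 numbered 3 for Dam and 6 for Dam-Lam. Among all 7089 units there were 3089 for Dam and 4853 for Dam-Lam.

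The 3 kinds of cells each had their own untreated DNA. Called higher with TSA in all 3 were mRpL15, mRpL36, mRpL44 and mRpS16, and called lower in all 3 were mRpL17, mRpL33 and mRpL52. The share of all units called in all 3 was not computed, so these members are not set apart from other genes by it. Taken singly, 31.6% of all units were called for Dam, 65.5% for Dam-Lam and 56.9% for Dam-Lam delta CaaX. The highest of these members was mRpS16. It gave 0.67 and 0.87 on the Dam arrays, 0.90 and 1.44 on the Dam-Lam arrays, and 1.14 and 1.04 on the Dam-Lam delta CaaX arrays. All 6 arrays were above 0, and the changes were 0.77, 1.17 and 1.09 (SE 0.12 each, adjusted p = 0.000935, 5.22e-06 and 1.09e-05).

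mRpL15 gave 0.50 and 0.74 with Dam, 1.11 and 1.12 with Dam-Lam, and 0.53 and 0.69 with Dam-Lam delta CaaX. The Dam-Lam values lay above the others, and the changes were 0.62, 1.11 and 0.61 (SE 0.09 each). mRpL36 gave 0.28 and 0.53 with Dam, 0.73 and 0.62 with Dam-Lam, and 0.90 and 1.22 with Dam-Lam delta CaaX. The changes of mRpL36 were 0.40, 0.67 and 1.06 (SE 0.11 each). mRpL44, whose human relative has the fold of a double-strand RNA nuclease, changed by 0.36, 0.54 and 0.47 (SE 0.11 each).

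Of the lower members, mRpL33 gave -0.59 and -0.53 with Dam, -1.46 and -1.44 with Dam-Lam, and -1.45 and -1.39 with Dam-Lam delta CaaX. Its values with either fusion lay below those with Dam, and the changes were -0.56, -1.45 and -1.42 (SE 0.10 each, adjusted p = 0.00185, 3.04e-07 and 2.84e-07). mRpL17, which in bacteria lies at the rim of the exit tunnel, gave -0.77 and -0.50 with Dam, -0.95 and -0.88 with Dam-Lam, and -1.56 and -1.38 with Dam-Lam delta CaaX. The changes were -0.64, -0.92 and -1.47 (SE 0.10 each). mRpL52, without a bacterial relative, gave -0.58 and -0.35, then -0.42 and -0.21, then -0.74 and -0.59, with changes of -0.46, -0.32 and -0.66 (SE 0.09 each).

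Other members moved in some of the 3. With Dam-Lam, mRpS9 (0.70 ± 0.11), mRpL46 (0.64 ± 0.10), mRpS30 (0.63 ± 0.10) and mRpS6 (0.61 ± 0.10) rose. The mammalian relative of mRpS30 is a part of the large subunit in spite of its name. With Dam-Lam delta CaaX, mRpL22 (0.94 ± 0.12) and mRpS34 (0.48 ± 0.09) rose, and mRpL20 (-0.60 ± 0.11), mRpL54 (-0.57 ± 0.10) and mRpS22 (-0.55 ± 0.12) fell. mRpL3 rose with Dam (0.34 ± 0.09) and Dam-Lam (0.32 ± 0.09) and fell with Dam-Lam delta CaaX (-0.38 ± 0.09). With Dam alone, mRpL4 (0.41 ± 0.09) and mRpS29 (0.44 ± 0.13) rose, and mRpL19 (-0.37 ± 0.12) and mRpL20 (-0.34 ± 0.11) fell. The human relative of mRpS29 binds GTP and is also known as a death-associated protein.

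mRpL37 was the least reproducible member. It gave -1.46 and -0.54 with Dam (change -1.003 ± 0.291, adjusted p = 0.0209), 1.37 and 0.06 with Dam-Lam (0.71 ± 0.29, adjusted p = 0.046) and 0.15 and 0.36 with Dam-Lam delta CaaX (0.26 ± 0.29, adjusted p = 0.469). The SE of 0.29 compares with 0.09 to 0.13 for the members named above. Without array 3686 the Dam-Lam change of mRpL37 was -0.32 and was not called. Without array 3690 its Dam change was -0.64 (adjusted p = 0.324).

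Leaving out 1 of the 10 arrays gave 5 to 15 calls for Dam (5 without array 3690), 12 to 22 for Dam-Lam (12 without array 3686) and 10 to 23 for Dam-Lam delta CaaX (13 without array 3692 and 10 without array 3693). Of all units, 12.7% were called for Dam without array 3690 and 45.9% for Dam-Lam without array 3686. For Dam-Lam delta CaaX, 36.4% were called without array 3692 and 34.6% without array 3693. Calls that held each time were 5 of 14 for Dam, 9 of 21 for Dam-Lam and 9 of 22 for Dam-Lam delta CaaX. mRpL15, mRpL17, mRpL33 and mRpS16 were among them in all 3. The share of all units whose calls held each time was not computed for any comparison. Calls that held are therefore not set apart from those of other genes.

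**Figure D4:**
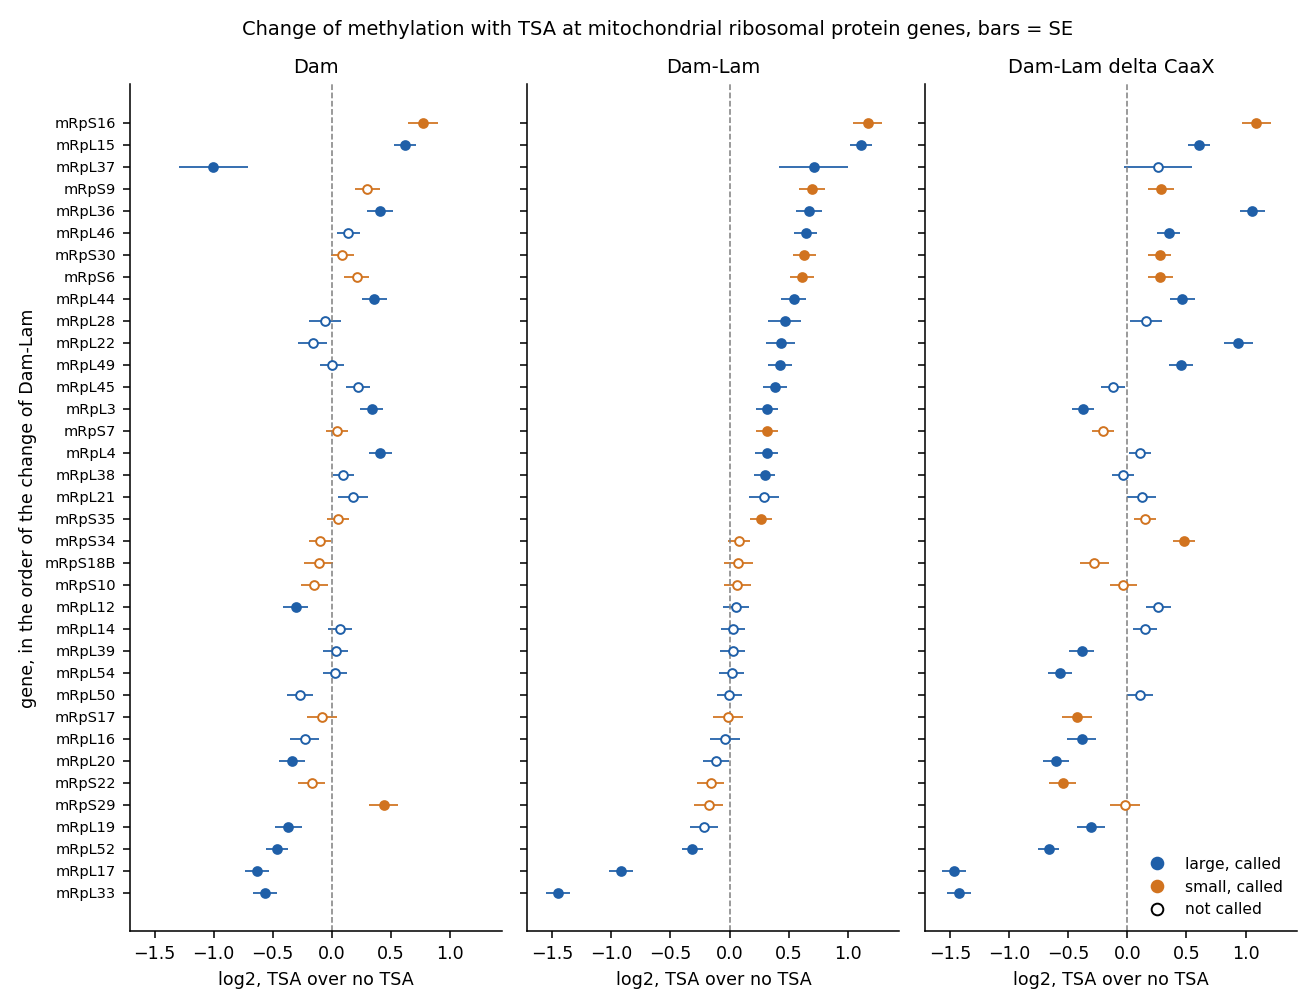
Change with TSA (log2, TSA over no TSA) of 36 genes in cells expressing Dam, Dam-Lam or Dam-Lam delta CaaX, with SE bars and genes in the order of the Dam-Lam change, where filled points are called. mRpS16 and mRpL15 lie highest with Dam-Lam and mRpL33 and mRpL17 lowest, and the bars of mRpL37 are the widest.

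Whether a fusion protein changed beyond the change of Dam was tested in the same model. Both differences subtract the same pair of Dam arrays, so they are not independent. Net of Dam, Dam-Lam rose at 6 members, where 12.4% of all units rose, and fell at 2, where 17.6% fell. Dam-Lam delta CaaX net of Dam rose at 6, where 16.2% of all units rose, and fell at 5, where 20.4% fell. The medians were 0.20 and -0.01, against -0.02 and -0.01 for all units.

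mRpL33 fell by 0.89 ± 0.14 for Dam-Lam net of Dam (adjusted p = 0.00144) and by 0.86 ± 0.14 for Dam-Lam delta CaaX net of Dam (adjusted p = 0.00119). mRpL22 changed by 0.60 ± 0.17 and 1.10 ± 0.17. Its arrays gave -0.48 and 0.15 with Dam, 0.49 and 0.38 with Dam-Lam, and 0.95 and 0.93 with Dam-Lam delta CaaX. mRpL37 changed by 1.72 ± 0.41 and 1.26 ± 0.41, with the spread given above. mRpL17 (-0.83 ± 0.14) and mRpL3 (-0.71 ± 0.13) were lower for Dam-Lam delta CaaX net of Dam. mRpS16, which rose in all 3 kinds of cells, did not pass for either difference (0.40 ± 0.17, adjusted p = 0.103, and 0.32 ± 0.17, adjusted p = 0.168).

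With an array left out, the calls net of Dam ranged from 2 to 10 for Dam-Lam and from 6 to 11 for Dam-Lam delta CaaX. For Dam-Lam there were 2 without array 3686, 2 without array 3690 and 4 without array 3687, where 10.1%, 19.1% and 14.1% of all units were called. For Dam-Lam delta CaaX there were 7 without array 3692 and 6 without array 3693, where 16.9% and 15.7% of all units were called. The call of mRpL33 held each time for both, and those of mRpL3, mRpL17 and mRpL22 for Dam-Lam delta CaaX.

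In cells grown with TSA, the fusions were also set directly against Dam. Dam-Lam over Dam called 0 members higher, where 19.5% of all units were higher, and 13 lower, where 14.6% were lower (34.0% in either direction), with a median of -0.22. Of the 36 members, 26 were below 0 on both arrays, where 39.1% of all units were. The highest ratio was 0.10 at mRpS30, and 17 members had an unadjusted p under 0.05, as had 3153 of all 7089 units. Dam-Lam delta CaaX over Dam called 6 lower, where 7.19% of all units were lower, and 2 higher, where 5.29% were higher, with a median of -0.15.

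The lowest members with Lam and TSA were mRpL37 (-1.42 and -0.67 on the pair of arrays, mean -1.04 ± 0.29), mRpL17 (-0.81 and -0.80, mean -0.81 ± 0.10) and mRpL33 (-0.72 and -0.49, mean -0.60 ± 0.10). With Lam delta CaaX and TSA they were the same 3 genes, mRpL37 (-1.97 and -0.85, mean -1.41 ± 0.29), mRpL17 (-1.07 and -0.64, mean -0.86 ± 0.10) and mRpL33 (-0.53 and -0.79, mean -0.66 ± 0.10). The TSA-treated Dam DNA is shared by both sets of arrays. mRpL20 (-0.54 ± 0.11), mRpL49 (-0.45 ± 0.10) and mRpL44 (-0.41 ± 0.10) followed for Lam, and mRpL54 (-0.47 ± 0.10), mRpL3 (-0.40 ± 0.09) and mRpL49 (-0.38 ± 0.10) for Lam delta CaaX. mRpL4, which in bacteria reaches into the exit tunnel, and mRpS30 were higher with Lam delta CaaX (0.44 ± 0.09 and 0.43 ± 0.10). In untreated cells mRpL33 had been called higher with Lam delta CaaX (0.77), on arrays of another experiment. With 1 array left out, calls ranged from 2 to 15 for Lam (2 without array 3688 and 2 without array 3689) and from 1 to 10 for Lam delta CaaX (2 without array 3694 and 1 without array 3695), and mRpL17 held each time for both. For Lam, 4.88% of all units were called without array 3688 and 7.36% without array 3689. For Lam delta CaaX, 4.13% were called without array 3694 and 1.27% without array 3695.

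The mRNA of the members with ecdysone was tested on 5 arrays, and none of 36 was called in either direction, where 2.17% of all units were higher and 1.61% lower in limma (3.78% in either direction). At an unadjusted p under 0.05 there were 6 of 36 members, all with a mean below 0. Of all 7089 units, 1049 had an unadjusted p under 0.05. The median was -0.20 against 0.01 for all units, and 33 of 36 means were below 0. Means in this comparison are those of the fit, which gives both dye orientations equal weight. They can differ from the plain mean of the 5 arrays. On arrays 3426, 3427, 3450, 3451 and 3452 the median of the members was -0.21, 0.14, -0.54, -0.13 and -0.24. Array 3427 was the only one above 0, and over all rows it correlated at -0.14 with array 3426 and at 0.15 to 0.29 with the other 3. MsrA, known as the ecdysone-induced gene Eip71CD, was above 0 on all 5 arrays (0.59 to 2.02).

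mRpL15 had the lowest mean. Its values were -1.19, -2.14, -1.40, -1.72 and 0.72 on the arrays in the order above. The first 4 were far below 0 and array 3452 above it, and the fitted mean was -0.99 ± 0.25 (SE, n = 5, adjusted p = 0.0628). It was called lower without array 3452 (-1.47, adjusted p = 0.00676) and without array 3427 (-0.90, adjusted p = 0.00668). Without array 3427, mRpL36 (-0.55), mRpS10 (-0.63) and mRpS22 (-0.49) were called lower as well, where 11.4% of all units were called. mRpL37 gave 0.15, -0.76, 0.26, 0.18 and 0.36 (fitted mean 0.07 ± 0.17, adjusted p = 0.89), and mRpS16 had a fitted mean of -0.26 ± 0.16 (adjusted p = 0.503). mRpL20, with the lowest transcript level of the members, was above 0 on all 5 arrays with a fitted mean of 0.29 and was not called. Its change is relative to a signal below the array median.

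**Figure D5:**
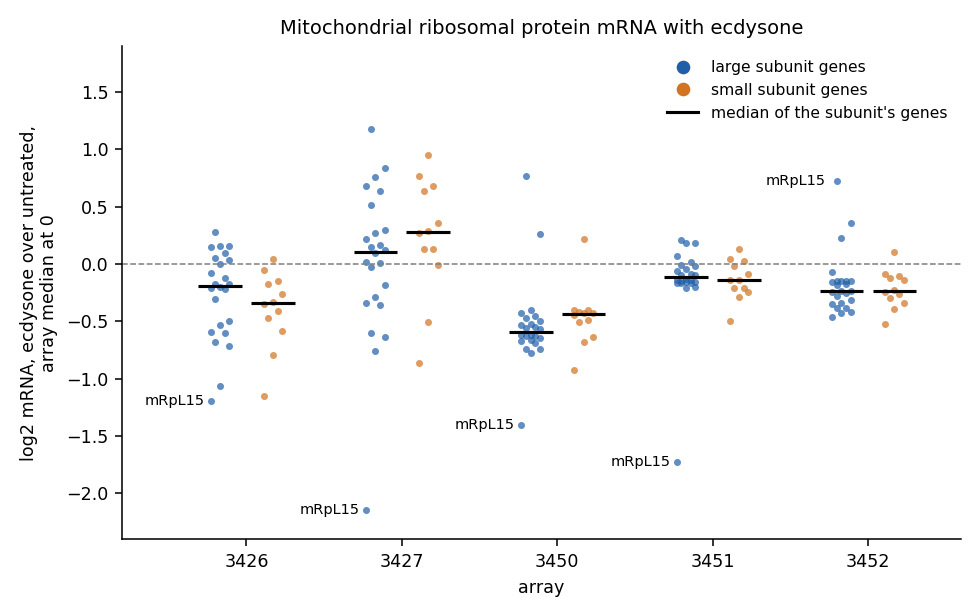
log2 mRNA with over without ecdysone of 36 genes on each of 5 arrays, in columns for large and small subunit genes with a bar at the median. The column medians of array 3427 lie above 0 and the others below, and mRpL15 is the lowest point on arrays 3426, 3427, 3450 and 3451 and the highest on array 3452.

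The 10 DamID arrays of the ecdysone experiment gave no settled direction. Among the arrays of Dam-Lam over Dam with ecdysone, array 3428 correlated at -0.64 with array 3436 and at -0.55 with array 3442. Among those without ecdysone, array 3434 correlated at -0.56 with array 3441 and at -0.48 with array 3443. The medians of the members were 0.10, -0.36 and -0.34 on arrays 3428, 3436 and 3442, and -0.48, 0.25 and 0.28 on arrays 3434, 3441 and 3443. Turning the sign of an array turns the sign of its median. Dam-Lam with over without ecdysone had medians of -0.12 and 0.08, and Dam had -0.10 and -0.05, on pairs of arrays that correlated at 0.02 and 0.06. No member was tested on these arrays.

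Genes of related mitochondrial functions were described by the same calls. With untreated Lam, where 14.9% of all units were lower and 20.3% higher, 6 of 14 genes of mitochondrial translation were lower and 0 higher (median -0.40), with 8 at an unadjusted p under 0.05. The lowest was SerRS-m, which charges mitochondrial serine tRNA, at -0.70. Of 10 genes of mitochondrial DNA and transcription, 4 were lower and 0 higher (median -0.35), with 6 at an unadjusted p under 0.05. Among all 8062 units of this comparison, 3911 had an unadjusted p under 0.05. Of 53 genes of oxidative phosphorylation, 11 were lower and 4 higher (median -0.29), from -1.03 at ND-B14.7, a subunit of complex I, to 0.93 at SdhAL. Of 30 cytosolic ribosomal protein genes, 6 were lower and 3 higher (median -0.31), and of 9 import genes 1 was lower and 1 higher (median -0.17). The highest called cytosolic one was RpL22-like at 0.86. As the lists were drawn by symbol, they include paralogues such as SdhAL and RpL22-like. A median below that of all units was thus shared by all 5 lists, and no difference between the lists was tested. Without array 2921, 0.141% of all units were called in this comparison.

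With Lam delta CaaX, where 16.1% of all units were higher and 16.4% lower, 6 of 10 genes of mitochondrial DNA and transcription were higher and 2 lower (median 0.50), with bsf, an RNA-binding protein, highest at 0.88. Mitochondrial translation genes had 1 higher and 1 lower of 14 (median -0.08). Oxidative phosphorylation genes had 9 higher and 11 lower of 54 (median -0.02). With TSA in Dam-Lam cells, where 31.9% of all units rose and 33.6% fell, 7 of 12 mitochondrial translation genes rose and 2 fell (median 0.46), and 6 of 8 genes of mitochondrial DNA and transcription rose and 1 fell (median 0.52). Oxidative phosphorylation genes had 12 higher and 16 lower of 48 (median -0.13), and cytosolic ribosomal protein genes 4 higher and 10 lower of 28 (median -0.02). tko rose with Dam-Lam (0.28) and bonsai did not pass (-0.12). With ecdysone, the mRNA medians were -0.24 for oxidative phosphorylation and 0.20 for cytosolic ribosomal proteins.

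Each member was also set beside the protein-coding genes just before and after it by start position in Release 6. Distance was neither measured nor limited, and spread of DamID marks between genes was not tested. No member had another member as its immediate neighbour. Across the 41 members with a measured neighbour, the untreated Lam ratio correlated with the mean of the neighbours at Pearson's r = 0.31 and Spearman's rho = 0.17. For the TSA change over 28 members, r was 0.57 and rho 0.36 for Dam-Lam, and r was 0.57 and rho 0.39 for Dam-Lam delta CaaX. For Dam r was 0.20 and rho -0.07, of opposite sign. The member and its neighbours changed in the same direction at 19 of 28 members for Dam-Lam, 16 for Dam-Lam delta CaaX and 14 for Dam. These correlations are across genes measured on the same arrays and are given without a test.

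Of the 7 members called in all 3 TSA changes, 5 had a measured neighbour, and the values of each follow in the order Dam, Dam-Lam and Dam-Lam delta CaaX. Tudor-SN beside mRpL17 changed by -0.52, -0.94 and -1.57, and ReepB beside mRpS16 by 0.69, 1.30 and 0.89. Uba2 beside mRpL36 gave 0.17, 0.56 and 0.56, where the first was not called. These 3 genes had the direction of the member throughout. NO66 beside mRpL33 gave 0.46, -0.17 and -0.45, opposite to the member with Dam and not called with Dam-Lam. mRpL44 has a measured gene on each side, POLDIP2 with 0.30, 0.80 and 0.99, all called, and Snr1 with -0.21, 0.12 and -0.54, called for the last alone. The direction of a neighbour thus differed from that of the member at mRpL33 and on 1 side of mRpL44. The neighbours of mRpL37 were not measured. The Lam ratio of the members correlated at -0.17 with their mRNA level over 52 genes.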

How the data were processed

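Each array was a 2-colour cDNA array, and the deposited values are log2 ratios, 1 per row, as the authors made them. Per the submitters' processing notes limma was used, with no version given. For background correction, normalization, log base and direction, the method is not given in the sources used here. Log base 2 and channel 1 over channel 2 were assumed, and scanner intensities were not used here.

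From these values each array's median was subtracted and rows of 1 gene were averaged, giving 8421 units. Linear models (limma 3.58.1, functions lmFit and eBayes, under R 4.3.3) held a term for the dye of channel 1. Units measured on under 75% of the arrays in a model were dropped. All tests were two-sided, with Benjamini-Hochberg adjustment over all units of a fit. Full-length Lam and Lam delta CaaX had a fit each and 1 together, the 10 TSA arrays shared a model of 6 DNA samples, and the ecdysone mRNA arrays had their own fit. The fitting steps were tested on simulated data. Ratios of mRNA over genomic DNA and the ecdysone DamID arrays were described without a test.

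Members were named if called in a comparison with 12 or fewer calls, otherwise if among its 6 highest or 6 lowest calls. The 5 highest and 5 lowest mRNA ratios, members whose rows differed by over 0.5 for Lam, and mRpL37 and mRpS16 were added. Other members named with a value (such as mRpS6, mRpS30, mRpL3 and mRpS28, and mRpL20 with ecdysone) were chosen after their values were seen. The members and all gene lists were chosen with earlier results of these data known. Alternatives were values as deposited, no dye term, values on every array, rows tested singly, arrays scaled to 1 spread, and each array left out. Gene neighbours and symbols came from Release 6.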

Additional observations from a re-analysis of the deposited data

Results flagged for a closer look

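In 25 sets of 4 or 5 arrays examined for an array far from the others, of which chance alone would mark about 1 in 20, 2 values stood apart. mRpL23 was at -1.64 on array 2945 for full-length Lam over Dam, where the other 3 arrays lay between -0.45 and -0.36. mRpL37 was at -0.76 on array 3427 for mRNA with ecdysone, where the other 4 arrays lay between 0.15 and 0.36.

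The change with TSA of a fusion protein differed from that of Dam, by the limma contrast of both changes, at 8 of 36 members for Dam-Lam and 11 for Dam-Lam delta CaaX. Among all units, 30.0% were called for Dam-Lam and 36.5% for Dam-Lam delta CaaX, so such calls were common outside the members too. These differences share the Dam arrays. For Dam-Lam net of Dam they were -0.89 at mRpL33, -0.61 at mRpS29, 0.42 at mRpL49, 0.49 at mRpL15, 0.50 at mRpL46, 0.54 at mRpS30, 0.60 at mRpL22 and 1.72 at mRpL37. For Dam-Lam delta CaaX net of Dam they were -0.86 at mRpL33, -0.83 at mRpL17, -0.71 at mRpL3, -0.59 at mRpL54, -0.42 at mRpL39 and 0.46 at mRpL49. They were 0.57 at mRpL12, 0.58 at mRpS34, 0.65 at mRpL36, 1.10 at mRpL22 and 1.26 at mRpL37. The largest, at mRpL37, had an SE of 0.41 in both.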

How the results depend on the processing

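No paired analysis was possible because the groups compared share no replicate numbers in the labels. Without the dye term, 9 members were called for the TSA change of Dam (14 with it) and 7 for Lam over Dam with TSA (13 with it). With the term, 31.6% and 34.0% of all units were called, and the shares without it are not given here. The median mRNA ratio of the members was 0.97 as deposited and 1.18 after centring. The TSA change of Dam-Lam at mRpL37 was -0.32 without array 3686, turned in direction and not called, and 1.74 without array 3687. The median of all members for the TSA change of Dam was 0.03, and -0.0002 as deposited. The causes were not tested. Leaving out 1 array gave 0 to 32 calls for Lam, 6 to 22 for Lam delta CaaX and 3 to 14 for their difference. Of all units, 0.141% to 54.1%, 12.8% to 41.9% and 25.0% to 37.5% were called in these fits. The removals gave 5 to 15 for the TSA change of Dam, 12 to 22 for Dam-Lam and 10 to 23 for Dam-Lam delta CaaX. Shares of all units were 12.7% to 33.4%, 45.9% to 69.4% and 34.6% to 61.6%. Net of Dam they gave 2 to 10 for Dam-Lam and 6 to 11 for Dam-Lam delta CaaX (10.1% to 32.5% and 15.7% to 38.6% of all units). With TSA they gave 2 to 15 for Lam over Dam and 1 to 10 for Lam delta CaaX over Dam. For mRNA with ecdysone they gave 0 to 4. Shares of all units were 4.88% to 41.5%, 1.27% to 20.2% and 1.18% to 11.4%. A fit of 4 arrays keeps 1 residual degree of freedom when an array is left out. Among the values of the named members, single-array removals kept the direction but lost the call 133 times and gained a call 4 times, with the members gained outside that rule counted only in the ranges above; no dye term made 12 lose one, rows tested singly 2 and values as deposited 1. Scaling arrays to 1 spread and requiring a value on every array changed no call among the values computed. Promoter motifs were not examined. Signal over background was not examined, as intensities were not used here.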
